A study of Mus musculus with 282 samples.

Results

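The 6 genes for secreted matrix and matrix-associated proteins, Dcn, Sparc, Bgn, Lum, Inhba and Igfbp3, were followed in sorted basal stem cells from naive and inflamed mouse prostates. They made up 6 of the 48440 gene rows of the count tables, and they were chosen as genes usually read as mesenchymal, with the difference between naive and inflamed cells already known. Their differences between the conditions are therefore given as descriptions, with no test. The cells came from prostates of male POET3 mice, a strain that expresses ovalbumin in the prostate and serves as a prostatitis model, either naive or inflamed. The sources used here do not give how inflammation was induced, the age of the mice or the number of animals, and both conditions carry the transgene. Each cell is 1 sample, the labels name no animal, and the batch number, 2 or 3, is a label that naive and inflamed cells share. Position codes in the sample titles recur in both conditions of a batch, so naive and inflamed cells may be separate captures. Condition and capture cannot then be told apart. The study asked how inflammation alters these cells, with androgen receptor signalling and the interleukin 1 receptor antagonist in its title.

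Decorin (Dcn), biglycan (Bgn) and lumican (Lum) are small leucine-rich proteoglycans, secreted proteins that bind collagen fibrils and, when soluble, growth factors and receptors. Sparc (osteonectin) is a matricellular glycoprotein, one that is deposited in matrix and modulates how cells attach to it without being a structural fibre. Inhba encodes the subunit of which activin A, a TGF-beta family ligand that signals through Smad2 and Smad3, is a homodimer. Igfbp3 carries insulin-like growth factors in the circulation and in tissue. In most organs, fibroblasts and other stromal cells are the best known source of decorin, lumican and fibrillar collagen, whereas basal cells of the prostate form the epithelial layer next to the stroma.

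After cells with few detected genes or counts were left out, 268 of 282 cells remained: 53 naive and 80 inflamed cells of batch 2, and 59 naive and 76 inflamed cells of batch 3. Median depth per cell was 840863 to 1001872 reads, and naive cells of batch 3 had the fewest detected genes (median 3432, against 4108 to 4739 in the other groups). Cells of a condition and batch were added up, which gave 4 sums of 50105953 to 79225330 reads, and levels of sums are CPM on library sizes scaled by TMM factors. edgeR's quasi-likelihood test on these sums called 0 of 14713 genes at an adjusted p under 0.05 (lowest adjusted p = 0.568). Before adjustment, 742 genes (5.04%) had a p below 0.05 on the higher side in inflamed cells and 475 (3.23%) on the lower side, and DESeq2 called 927 genes higher (6.30%) and 534 lower (3.63%) after adjustment. Pairs of values are given for batch 2 and then batch 3, as sums of the naive and of the inflamed cells. Every companion gene named below therefore missed edgeR's adjusted threshold.

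The promoter bases of the 3 members that passed the filter on low counts and lay on the same side in both batches are shown first, so that a reader can see the sequence next to genes that went opposite ways. They are the 250 bases before the RefSeq start on GRCm38.p6, 5′ to 3′ on the gene's strand, with capitals for letters that matched a searched motif. Sparc (chr11:55420081-55420330, minus strand) was lower in inflamed cells, and Bgn (chrX:73483351-73483600, plus strand) and Inhba (chr13:16011601-16011850, plus strand) were higher.
Sparc: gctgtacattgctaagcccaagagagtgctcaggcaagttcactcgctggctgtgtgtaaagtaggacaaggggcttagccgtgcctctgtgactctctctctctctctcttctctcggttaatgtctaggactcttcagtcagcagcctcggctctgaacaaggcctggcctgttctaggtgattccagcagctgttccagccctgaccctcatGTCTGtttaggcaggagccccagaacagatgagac
Bgn: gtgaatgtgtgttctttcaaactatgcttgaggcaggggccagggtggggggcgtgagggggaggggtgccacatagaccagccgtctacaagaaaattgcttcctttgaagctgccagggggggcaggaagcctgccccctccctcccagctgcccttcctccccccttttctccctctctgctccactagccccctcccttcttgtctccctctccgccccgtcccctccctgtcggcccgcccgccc
Inhba: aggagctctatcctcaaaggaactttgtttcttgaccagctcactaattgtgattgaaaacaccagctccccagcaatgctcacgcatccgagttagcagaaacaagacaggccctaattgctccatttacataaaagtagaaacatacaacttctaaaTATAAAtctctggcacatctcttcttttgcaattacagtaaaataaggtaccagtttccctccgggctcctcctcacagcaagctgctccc
The RefSeq table held 4 of the 6 members, the fourth being Igfbp3. All motifs were searched on both strands. In Sparc the capitals mark the letters that Smad proteins bind, CAGAC, here on the opposite strand, at 35 to 31 bases before the start. These letters occur in 42.2% of the 32817 promoter windows of the same length. In Inhba the capitals mark the letters of a TATA box, TATAAA, at 91 to 86 bases before the start, and 12.4% of all windows hold them. This is a match of letters, and whether it acts as a TATA box was not tested. None of the 4 windows held the AP-1 site, TGANTCA, which 6.75% of all windows hold. The same was so for the STAT site, TTCNNNGAA, which 7.01% hold, and for the CArG motif (1.47%) and the NF-kB motif (3.90%), both searched by their usual consensus. G and C made up 54% of the Sparc window, 64.4% of that of Bgn, 43.2% of that of Inhba and 73.2% of that of Igfbp3. The RefSeq start of Sparc lies inside the longer gene span of GENCODE, and which start these cells used was not measured.

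The sort was checked against marker genes, since decorin in a sorted epithelial cell raises the question of which cell was captured. All 268 cells had reads of at least 3 of 10 basal markers, and the summed basal level was 8257 to 13904 CPM. Of 17 fibroblast markers, 5 had no read in any kept cell (Pdgfrb, Thy1, Prrx1, Dpt and Col6a3). The summed fibroblast level was 54.6 and 4.69 CPM in naive batches 2 and 3 and 6.30 and 5.23 CPM in inflamed batches 2 and 3. No cell had reads of more than 3 fibroblast markers, 1 cell had 3, and 208 had none. Col1a1, Col1a2 and Col3a1, chains of the fibrillar collagens that fibroblasts secrete in bulk, had 210 reads together in 268 cells, and 1 naive cell of batch 2 gave 63.3% of them. Pdgfra made most of the naive batch 2 level, at 36.1 CPM in 7 cells, 1 of which gave 66.7% of the reads.

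**Figure D1:**
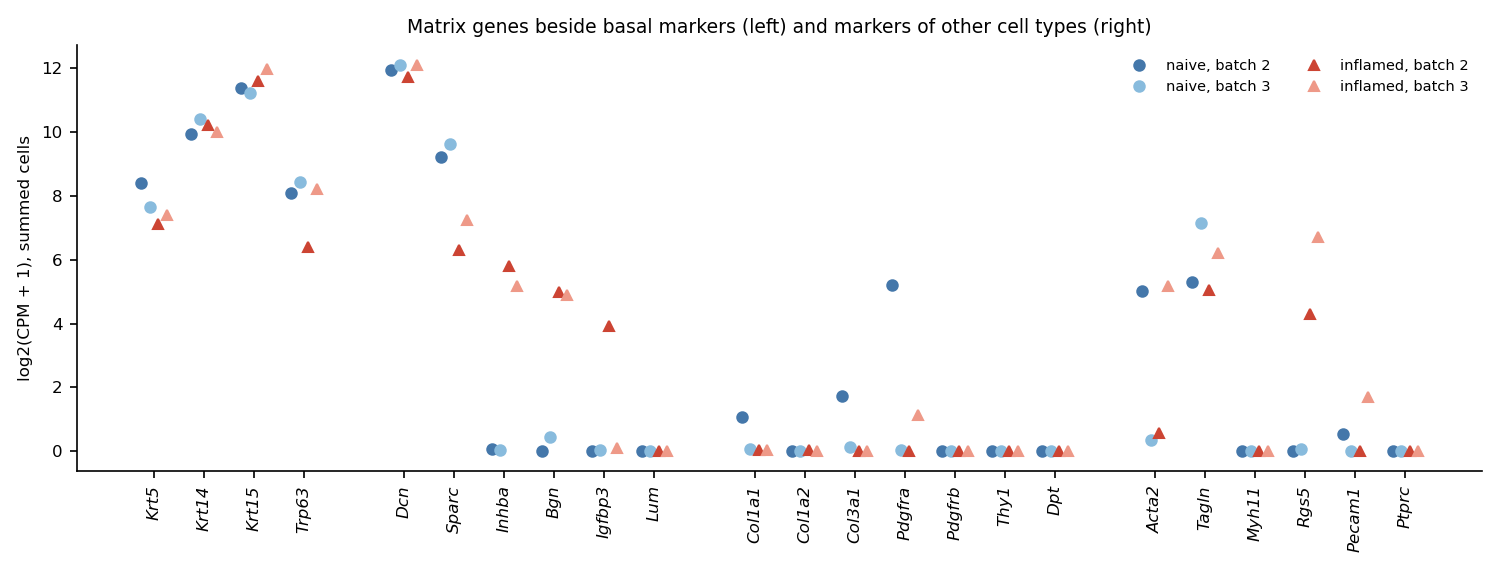
Level of each gene in the 4 sums of cells, as log2(CPM + 1), with circles for naive and triangles for inflamed cells. By CPM, which is not per length, Dcn lies above the basal keratin genes Krt14 and Krt15 in all 4 sums. Col1a1, Col1a2, Col3a1, Pdgfrb, Thy1 and Dpt lie at or near 0 apart from low values in naive batch 2. Pdgfra, also plotted, stands well above these genes in naive batch 2.

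Markers of other stromal types were uneven. Of 10 smooth muscle markers, Myh11, Actg2, Des and Myocd were at 0 in all sums, and the summed level was 135.45 to 221 CPM, with Tagln at 31.9 to 141.5 CPM in it. Reads of at least 3 of these markers were found in 34 cells, and of 5 in the cell with the most. Acta2, the smooth muscle actin, had 31.7 and 0.273 CPM (naive) and 0.494 and 35.1 CPM (inflamed), with reads in 41 and 8 naive cells and in 26 and 23 inflamed cells. The part of smooth muscle markers in the members' levels was not tested. The pericyte list stood at 2.09 and 8.03 CPM (naive) and 18.6 and 111.9 CPM (inflamed), nearly all of the inflamed level from Rgs5, with Kcnj8 at 0. The endothelial list stood at 6.10 to 22.3 CPM, with Emcn and Cldn5 at 0. For leukocytes, 9 of 10 markers had no read, among them Ptprc, and 33.3% of all 21683 protein-coding rows also had 0 reads in every deposited cell. The luminal list stood at 2010.0 to 3003 CPM, and 266 cells had reads of at least 3 of its 13 genes. Upk1b made up the urothelial level of 33.7 to 428 CPM. Seminal vesicle genes stood at 11.6 and 128.09 CPM (naive) and 67.1 and 0 CPM (inflamed).

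Within each batch, 3 of the 6 members had a higher level in inflamed than in naive cells in both batches (Inhba, Bgn and Igfbp3), where 30.9% of all genes tested were higher in both. Sparc alone was lower in both batches, where 27.6% of all genes were lower in both. Dcn was lower in batch 2 only, and Lum had no read. These counts restate the contrast the genes were chosen on. Only Dcn, Sparc, Bgn and Inhba passed the filter on low counts, so Igfbp3 and Lum lie outside the genes behind these shares. In batch 3 the higher level of Igfbp3 rested on 6 reads in 1 inflamed cell against 1 naive read.

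**Figure D2:**
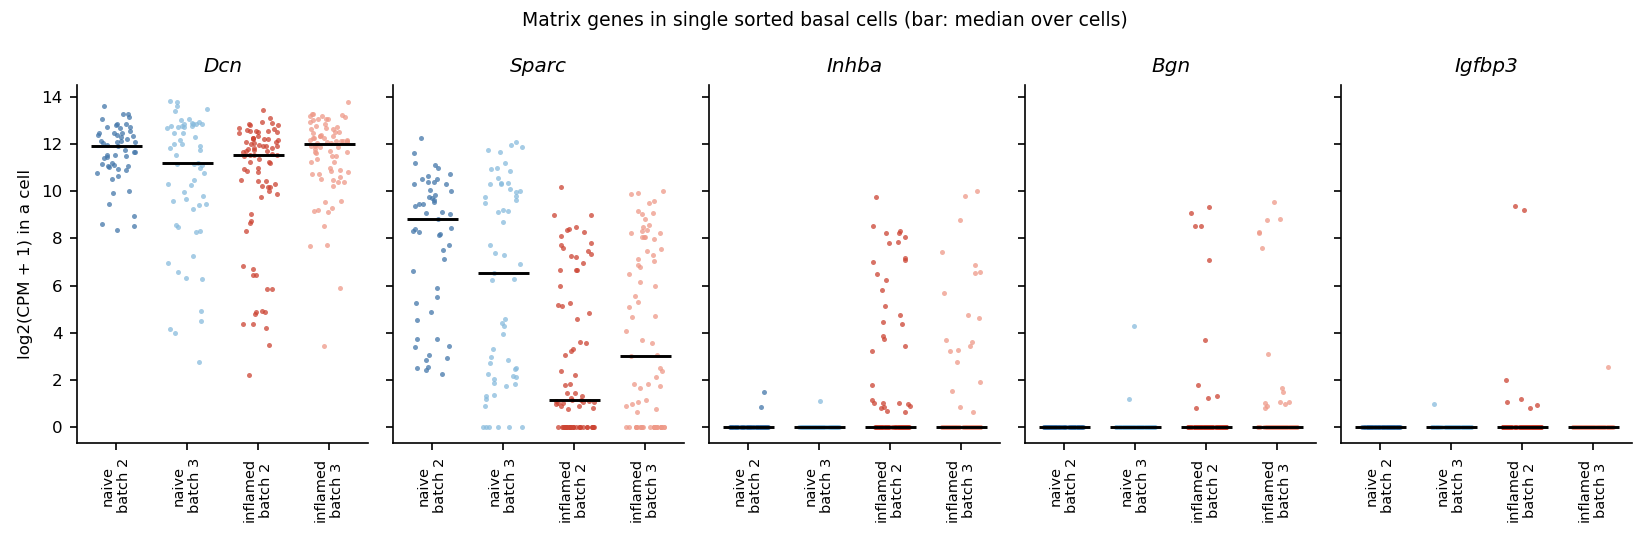
Each point is 1 cell, its height the log2(CPM + 1) of the gene in that cell on the cell's own read total, and the bar is the median over the cells of the group. Dcn fills the top of the scale in all 4 groups, Sparc shifts down in inflamed cells, and reads of Inhba and Bgn come from a minority of inflamed cells.

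Decorin was the most abundant of the 6 per length. Dcn (ENSMUSG00000019929, GRCm38 chromosome 10, 97479609 to 97518143, plus strand) stood at 3923 and 4358 CPM (naive) and at 3369 and 4387 CPM (inflamed). The lower and the higher inflamed sum lay on either side of both naive sums, so the conditions overlapped. Its log2 fold change was -0.11 (n = 2 sums in each condition), from -0.22 in batch 2 and 0.01 in batch 3. By CPM it ranked 13th and 18th among all genes of the naive sums and 21st and 13th of the inflamed sums. Per length of exon, it ranked 54th in both naive sums and 73rd and 46th in the inflamed sums, at 576 to 730.2 FPKM on read totals without TMM factors.

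Reads of Dcn were found in each of the 268 kept cells, as for 77 genes in all, and in each of the 14 cells left out. The level per cell in naive batch 2 ran from 331 to 12516 CPM around a median of 3881. In naive batch 3 it ran from 5.74 to 14594 CPM (median 2379), in inflamed batch 2 from 3.59 to 11036 (median 2988) and in inflamed batch 3 from 9.76 to 13929 (median 4084). Naive batch 2 thus lacked the low cells that each other group held. No sum rested on few cells, since the top cell gave 3.87% to 6.14% of the Dcn reads. With at least 5 reads required, 266 cells still counted, 78 of 80 in inflamed batch 2 and all cells of the other groups. The markers of fibroblasts, at 4.69 to 54.6 CPM summed over 17 genes, were highest in naive batch 2, where the Dcn sum lay below both sums of batch 3 and the Dcn median per cell lay above that of naive batch 3. Their part in the Dcn level was not tested. No 50-base window of the Dcn transcripts was identical to a window in the annotated transcripts of another gene. Copies with mismatches or outside the annotation were not searched.

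The other proteoglycan genes beside Dcn had no reads. Lumican, its paralog and the next gene at higher coordinates, 46984 bases away (ENSMUSG00000036446, chromosome 10, 97565128 to 97572703, plus strand), had 0 reads in all 282 deposited cells. With 0 of 268 kept cells, a share of up to 1.12% of cells remained possible by counting error. Keratocan (Kera) and epiphycan (Epyc), which follow on the same strand, also had 0 reads. On the other side the nearest coding gene, Btg1, lies 856799 bases away and had 1801 and 3262 CPM (naive) and 2759.8 and 3595 CPM (inflamed). Dcn thus had 1029942 reads in the kept cells, in a locus whose other leucine-rich genes had none.

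Biglycan, the proteoglycan closest to decorin in sequence, was found in a minority of inflamed cells. Bgn (ENSMUSG00000031375, chromosome X, 73483602 to 73495933, plus strand) had 0 reads in naive batch 2 and 18 reads (0.378 CPM) in naive batch 3. It had 2451 reads (31.02 CPM) in inflamed batch 2 and 2169 reads (28.5 CPM) in inflamed batch 3. Both inflamed sums lay above both naive sums. With the naive sum set to a floor of 3 reads, the batch 2 level was at least 585-fold higher, and in batch 3 it was 75.2-fold higher (95% counting interval 47.5 to 127.2). Reads have no molecular identifiers, so intervals and floors on reads cover counting error only. Intervals on shares of cells cover the number of cells counted, not differences between animals or captures.

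Few cells carried these reads. Bgn was detected in 0 of 53 naive cells of batch 2, which allows a share of up to 5.66% by the floor of 3 counts (exact upper limit 6.72%), and in 2 of 59 of batch 3 (3.39%, exact 95% interval 0.413 to 11.7). It was detected in 10 of 80 inflamed cells of batch 2 (12.5%, 6.16 to 21.8) and in 15 of 76 of batch 3 (19.7%, 11.5 to 30.5). These intervals cover the cells counted and are no test of the condition. A single cell gave 35.1% and 31.95% of the inflamed reads and 94.4% of the naive reads of batch 3, and at least 5 reads were found in 6 and 7 inflamed cells and 1 naive cell. In inflamed cells with a Bgn read, its median level was 74.02 CPM in batch 2 and 2.16 CPM in batch 3, so most cells of batch 3 held only a read or a few.

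**Figure D3:**
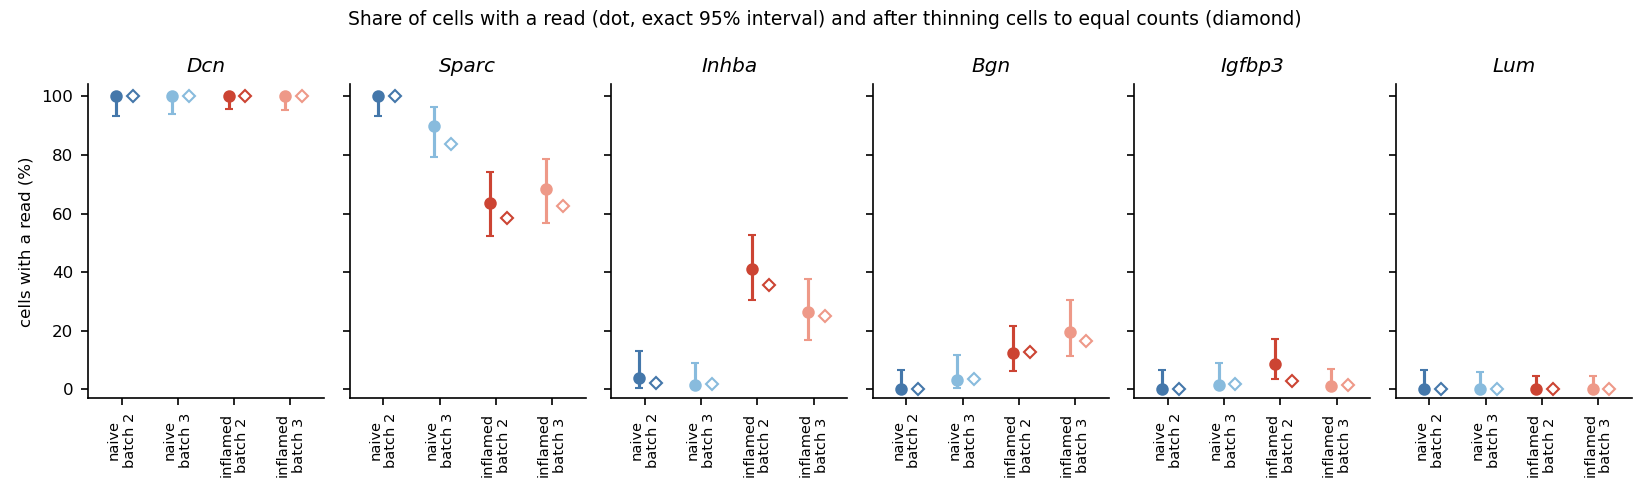
Dots give the percent of kept cells with at least 1 read and exact 95% intervals. Open diamonds give the percent after thinning to 500000 reads. They leave out cells with fewer reads and rest on 46 and 55 naive and 70 and 72 inflamed cells. Dcn stays at 100% and Lum at 0 throughout, the Sparc share is lower in inflamed cells (63.8% and 68.4% against 100.0% and 89.8%), and the Inhba share is higher (41.2% and 26.3% against 3.77% and 1.69%).

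Markers of other cells were looked up in the same cells as Bgn. All 25 inflamed cells with a Bgn read also had reads of Krt14, 23 had reads of Krt5 and 18 of Trp63, the transcription factor of basal cells. Among all inflamed cells of batch 2, 78 of 80 had reads of Krt14, 75 of Krt5 and 53 of Trp63. In batch 3 these numbers were 76, 75 and 58 of 76. Reads of these markers therefore do not set the Bgn cells apart from other inflamed cells. Rgs5, a signalling regulator best known from pericytes, was detected in 44 inflamed and 2 naive cells. The inflamed cells were 18 of 80 in batch 2 and 26 of 76 in batch 3. Of the 25 inflamed Bgn cells, 6 had reads of Rgs5. Rgs5 itself had 0 and 0.0420 CPM (naive) and 18.5 and 102.9 CPM (inflamed), so it moved in the same direction as Bgn. Its part in the Bgn result was not tested.

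The other small leucine-rich proteoglycans with enough reads to be tested were lower in inflamed cells. Of 14 such genes other than the members, 7 had reads and 4 were tested, 0 of them higher and 4 lower in both batches, 1 of them with an unadjusted p below 0.05. Of all genes tested, 27.6% were lower in both batches. The median log2 fold change of these 4 genes was -3.86, against 0.10 over all genes. Prelp, a proteoglycan of basement membranes and cartilage, had 135.3 and 230.2 CPM (naive) and 58.5 and 79.5 CPM (inflamed) (log2 fold change -1.37 ± 0.40, SE, edgeR p = 0.0298 unadjusted), and without naive batch 3, inflamed batch 2 or inflamed batch 3 it no longer had an unadjusted p under 0.05. Fibromodulin (Fmod), a collagen-binding relative of lumican, had 57.01 and 48.2 CPM (naive) and 7.43 and 0.315 CPM (inflamed), with reads in 37 and 21 naive and in 10 and 2 inflamed cells. Ogn had 41.1 and 2.33 CPM (naive) and 0 and 0.472 CPM (inflamed), and 1 cell gave 89.8% and 72.1% of the naive reads. Tsku had 1.27 and 0.651 CPM (naive) and 0.0506 and 0.380 CPM (inflamed). The log2 fold changes of Fmod (-5.07 ± 1.77, SE), Ogn (-7.07 ± 5.07) and Tsku (-2.65 ± 2.18) had an unadjusted p above 0.05 by edgeR. The untested genes with reads, Omd, Aspn and Ecm2, had at most 0.210 CPM, Aspn and Ecm2 with more in inflamed cells.

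Sparc showed the opposite course from Bgn and Inhba. Sparc (ENSMUSG00000018593, chromosome 11, 55394500 to 55423183, minus strand) had 589.8 and 789 CPM in naive batches 2 and 3 and 77.7 and 149.04 CPM in inflamed batches 2 and 3. Each inflamed sum lay below each naive sum. The level was lower by 7.59-fold (batch 2) and 5.29-fold (batch 3). The log2 difference was -2.66 (n = 2 sums in each condition), from -2.92 in batch 2 and -2.40 in batch 3. Per length this was 169.2 and 198 FPKM in naive and 20.5 and 38.2 FPKM in inflamed sums, so Dcn stood above Sparc per length in all 4 sums.

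Both the share of Sparc cells and the level per cell differed. In naive batch 2 all 53 cells had a read (exact 95% interval 93.3 to 100.0%), and in naive batch 3 53 of 59 did (89.8%, 79.2 to 96.2). In inflamed cells 51 of 80 (63.8%, 52.2 to 74.2) and 52 of 76 (68.4%, 56.7 to 78.6) had a read. After thinning to equal depth the shares were 100.0% and 83.6% in naive and 58.6% and 62.5% in inflamed cells, and with cells counted only from 5 reads on they were 96.2% and 62.7% against 35% and 51.3%.

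Median Sparc per cell was 457 and 91.7 CPM in naive batches 2 and 3, and 1.20 and 7.15 CPM in inflamed batches 2 and 3. These medians include cells with no read. Among cells with a read they were 457 and 166.7 CPM (naive) and 11.2 and 99.8 CPM (inflamed), so the batch 3 groups lay closer. The highest cells reached 4914 and 4308 CPM among naive cells and 1144 and 1021 CPM among inflamed cells. The cells of the conditions overlapped widely, with naive cells of batch 2 starting at 3.69 CPM and those of batch 3 at 0. Naive batch 3 was broad as well, its interquartile range lying between 3.41 and 1065 CPM, while that of inflamed batch 2 lay between 0 and 42.99 CPM. Markers of fibroblasts were highest in naive batch 2 (54.6 CPM), which also had the highest Sparc median per cell, and stood at 4.69 CPM in naive batch 3, which had the highest Sparc sum. Their part in the Sparc result was not tested.

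Other matricellular genes went both ways. Of 10 tested genes of the list besides Sparc, 4 were higher and 6 lower in both batches, and below an unadjusted p of 0.05 there were 2 on the higher and 1 on the lower side. Thrombospondin 1 (Thbs1), a binder of latent TGF-beta, had 1677 and 1785 CPM (naive) and 3270.1 and 2746 CPM (inflamed), 1.95-fold and 1.54-fold higher (edgeR p = 0.0372 unadjusted, lost without naive batch 2, naive batch 3 or inflamed batch 2, and by DESeq2). Ccn1, an integrin ligand and immediate early gene, had 3729.8 and 4418 CPM in naive against 1553 CPM in each inflamed sum (log2 fold change -1.39 ± 0.24, SE, edgeR p = 0.00574 unadjusted). Tenascin C (Tnc), a matrix glycoprotein of wounds, was near 0 in naive cells, at 0 and 0.0841 CPM, and had 109.98 and 43.8 CPM in inflamed cells, where 39 and 22 cells had reads and 1 cell gave 53.3% and 32.2% of them. Spock1, a testican with a Sparc-like domain, had 85.2 and 33.8 CPM (naive) and 33.3 and 8.09 CPM (inflamed).

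**Figure D4:**
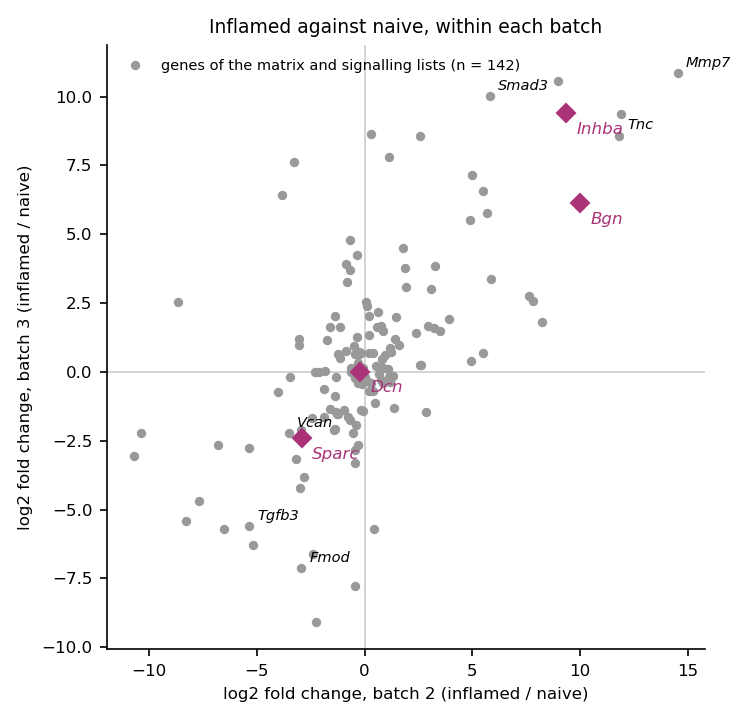
Each grey point is a tested gene of the matrix and signalling lists, placed by its log2 fold change of inflamed over naive in batch 2 (x axis) and batch 3 (y axis), and diamonds are the members that passed the filter on low counts. Inhba and Bgn lie in the upper right, Sparc in the lower left and Dcn at the origin. Values of genes with 0 reads in a sum depend on the prior count of 2.

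Inhba was read in more inflamed cells than Bgn or Igfbp3. Inhba (ENSMUSG00000041324, chromosome 13, 16011851 to 16031621, plus strand) had 3 reads (0.0530 CPM) and 1 read (0.0210 CPM) in naive batches 2 and 3. Inflamed batches 2 and 3 held 4318 reads (54.6 CPM) and 2650 reads (34.8 CPM). Both inflamed sums lay far above both naive sums, with ratios of 1030.3 (95% counting interval 352 to 4998) and 1655 (297 to 65376), whose width comes from the few naive reads.

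A read of Inhba was found in 2 of 53 and 1 of 59 naive cells (3.77%, exact 95% interval 0.460 to 12.98, and 1.69%, 0.0429 to 9.09). In inflamed cells it was found in 33 of 80 (41.2%, 30.4 to 52.8) and in 20 of 76 (26.3%, 16.9 to 37.7). Thinned to equal depth, the shares were 2.17% and 1.82% in naive and 35.7% and 25% in inflamed cells. At least 5 reads were found in 0 naive cells and in 22 and 15 inflamed cells. In the inflamed cells with a read, the median level was 21.01 and 17.7 CPM and the highest 850.2 and 1030.3 CPM, and the top cell gave 33.7% and 34.98% of the reads. Of the 53 inflamed cells with an Inhba read, 52 had reads of Krt5, 52 of Krt14 and 40 of Trp63, and 20 had reads of Rgs5. Among all inflamed cells of batch 2, 75 of 80 had reads of Krt5, 78 of Krt14, 53 of Trp63 and 18 of Rgs5. In batch 3 these numbers were 75, 76, 58 and 26 of 76. Reads of the basal markers therefore do not set the Inhba cells apart from other inflamed cells. Rgs5 was read in 10 of 33 and 10 of 20 Inhba cells, a larger share in both batches, which was not tested. The annotation has a pseudogene (B230303A05Rik) and an antisense gene (Gm48444) on the opposite strand of Inhba, which have no row in the tables, and reads of the strands could not be told apart.

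The other activin and TGF-beta ligands and antagonists were mostly low. Of 10 tested genes of that list other than Inhba, 3 were higher and 2 lower in both batches, and 1 gene in each direction had an unadjusted p below 0.05. Follistatin (Fst), which binds and blocks activin, had 9.30 and 6.96 CPM (naive) and 78.1 and 55.7 CPM (inflamed), 8.40-fold and 8.01-fold higher (log2 fold change 3.04 ± 0.75, SE, edgeR p = 0.0182 unadjusted, lost without inflamed batch 2). Reads of Fst came from 4 and 6 naive cells, 1 of which gave 81.4% and 96.7% of them, and from 49 and 20 inflamed cells. Inhbb, the other common activin subunit, had reads in 1 inflamed cell, and Tgfb1 stayed at or under 1.25 CPM. Tgfb3 had 2.78 and 2.71 CPM (naive) and 0.0380 and 0.0262 CPM (inflamed) (edgeR p = 0.0455 unadjusted, lost without any of the 4 sums and with no filter on low counts).

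Among receptors and Smads, in both batches the level was higher for 8 and lower for 5 of 17 tested genes, and 1 gene in each direction had an unadjusted p below 0.05. Smad3, the signal transducer of activin and TGF-beta, had 4.45 and 0.294 CPM (naive) and 253 and 335 CPM (inflamed) (log2 fold change 7.86 ± 1.59, SE, edgeR p = 0.00978 unadjusted). It had reads in 4 and 11 naive cells and in 68 and 44 inflamed cells. Acvr1 and Acvr1b, type I receptors, had 4.99 and 8.70 CPM and 0.566 and 11.1 CPM in naive sums, against 56.2 and 24.3 CPM and 18.3 and 14.4 CPM in inflamed sums, with unadjusted p above 0.05. Tgfbr3 (betaglycan), a co-receptor of TGF-beta 2 and inhibin, had 474 and 779 CPM (naive) and 175.9 and 180.99 CPM (inflamed) (edgeR p = 0.00880 unadjusted).

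Known target genes of the pathway had 7 of 20 tested genes higher and 10 lower in both batches, and below an unadjusted p of 0.05 there were 0 on the higher and 3 on the lower side. Those 3 were Id1, Id2 and Id3, inhibitors of helix-loop-helix factors that BMP signals induce and that TGF-beta can repress. Id1 had 462 and 550.0 CPM (naive) and 59.7 and 127.2 CPM (inflamed) (log2 fold change -2.53 ± 0.39, SE, edgeR p = 0.00408 unadjusted). Id3 had 3763 and 4031 CPM against 700.4 and 1272 CPM, and Id2 3115 and 3283 CPM against 1028 and 1283 CPM. Fn1 (fibronectin) had 3.85 and 25.8 CPM (naive) and 172.9 and 41.6 CPM (inflamed), and 1 cell gave 51.7% of the reads in inflamed batch 2.

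**Figure D5:**
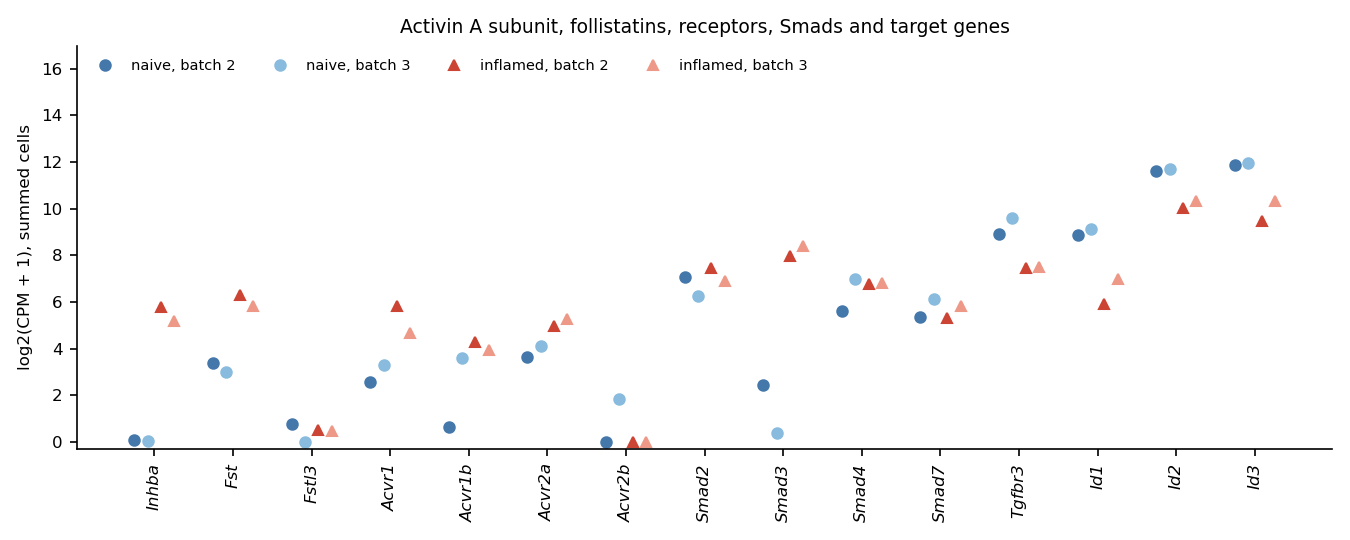
Level of Inhba and of genes from the activin and TGF-beta lists in the 4 sums, as log2(CPM + 1), with circles for naive and triangles for inflamed cells. Follistatins, receptors, Smads and the Id genes are plotted. Of 20 tested target genes only the Id genes are plotted, and in both batches 7 of the 20 were higher and 10 lower. Inhba, Fst, Acvr1, Acvr1b and Smad3 are higher in both inflamed sums, Tgfbr3, Id1, Id2 and Id3 lower, and Smad2, Smad4 and Smad7 overlap between the conditions.

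Nearly all reads of Igfbp3 came from inflamed batch 2. Igfbp3 (ENSMUSG00000020427, chromosome 11, 7206086 to 7213923, minus strand) had 0 and 1 reads in naive batches 2 and 3, 1126 reads (14.2 CPM) in inflamed batch 2 and 6 reads (0.0787 CPM) in inflamed batch 3. With naive batch 2 at the floor of 3 reads, inflamed batch 2 was at least 269-fold higher, and in batch 3 the ratio was 3.75 with a counting interval of 0.454 to 172.3, which spans no difference. The reads of batch 2 came from 7 of 80 cells (8.75%, exact 95% interval 3.59 to 17.2), 1 of which gave 51.8%, and only 2 cells had at least 5 reads. In batch 3 all 6 reads came from 1 cell. Leaving out the top cell of each gene and sum therefore brought the members higher in both batches from 3 to 2.

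Other genes of the insulin-like growth factor system went both ways. Of 12 tested, 3 were higher and 3 lower in both, and below an unadjusted p of 0.05 there were 0 on the higher and 1 on the lower side. That gene was Igfbp5, a binding protein that basal epithelia express, at 488 and 400.5 CPM (naive) and 196 and 146.3 CPM (inflamed) (log2 fold change -1.38 ± 0.30, SE, edgeR p = 0.0127 unadjusted, lost without inflamed batch 3). The receptor gene Igf1r had 257 and 188.97 CPM (naive) and 206 and 231 CPM (inflamed), which overlap, and Igf1 and Igf2, the ligands, had at most 0.265 CPM. Igfbp1, which lies 3539 bases from Igfbp3, had 0 reads.

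Interstitial collagens and other matrix genes were mostly low here. Of 17 interstitial collagen genes, 11 had reads and 5 were tested, with 1 higher and 3 lower in both batches, of which 1 and 2 had an unadjusted p below 0.05. Col12a1, a collagen that sits on fibril surfaces, had 27.7 and 85.8 CPM (naive) and 2.99 and 9.59 CPM (inflamed) (edgeR p = 0.0211 unadjusted, lost without naive batch 3 or inflamed batch 2). Versican (Vcan), a large proteoglycan, had 132.97 and 78.4 CPM (naive) and 11.5 and 16.9 CPM (inflamed), 11.5-fold and 4.63-fold lower (edgeR p = 0.0171 unadjusted). Sdc4 (syndecan 4), a cell-surface proteoglycan, was abundant throughout, at 6624 and 17045 CPM (naive) and 15579 and 27871 CPM (inflamed), and inflamed batch 2 lay below naive batch 3. Its unadjusted p of 0.0200 by edgeR was lost without the batch in the model and without naive batch 2, inflamed batch 2 or inflamed batch 3. Of 17 tested genes of collagen processing, 5 were higher and 6 lower in both batches, of which 1 and 2 had an unadjusted p below 0.05, and of 9 elastic fibre genes 4 and 2 (1 and 0).

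The list of matrix proteases, inhibitors and related genes had more genes on the higher side. Of 22 tested, 11 were higher and 4 lower in both batches, where 30.9% and 27.6% of all genes were. Below an unadjusted p of 0.05 there were 6 on the higher and 1 on the lower side, against 5.04% and 3.23% of all genes. The median log2 fold change of the list was 1.26, against 0.10 over all genes. This list, like the others, was chosen with earlier results of these data known. Matrilysin (Mmp7), an epithelial metalloprotease for which decorin is a known substrate, had 0 and 0.378 CPM (naive) and 729 and 759 CPM (inflamed), with reads in 0 of 53 and 11 of 59 naive and in 79 of 80 and 70 of 76 inflamed cells (edgeR p = 0.00276 unadjusted). Adam8, a membrane protease, had 0 and 0.0420 CPM (naive) and 119.8 and 48.3 CPM (inflamed), with 1 cell giving 41.3% and 33.9% of the inflamed reads. Plaur, the urokinase receptor, had 214 and 374 CPM (naive) and 2013 and 1114 CPM (inflamed). Of 7 receptors that bind decorin or biglycan, 3 were higher and 0 lower in both batches, of which 1 had an unadjusted p below 0.05. That receptor was Tlr2, through which soluble biglycan signals, with 0 reads in both naive sums and 15.3 and 46.9 CPM in inflamed sums, from 17 and 15 cells. Of the 7 tested genes of epithelial-mesenchymal transition, 3 were higher and 0 lower in both batches and none had an unadjusted p under 0.05 by edgeR.

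All these lists held 238 genes other than the members, of which 59.7% were tested. The lists were chosen with earlier results of these data known, so shares set beside those of all genes are descriptions only. Of those tested, 15 (10.6%) had an unadjusted p below 0.05 by edgeR on the higher side and 14 (9.86%) on the lower side. In both batches 51 were higher (35.9%) and 45 lower (31.7%), and 27 (19.01%) and 25 (17.6%) were so by at least 2-fold, where over all genes 14.6% and 10.6% were. Their median log2 fold change was 0.19, against 0.10 over all genes.

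The members were then compared within cells. Correlations were taken over the 268 cells and 9786 genes with reads in at least 10% of cells, on log2(CPM + 1) centred within condition and batch. They are descriptions, since the cells share libraries, depth and the number of genes detected. For Dcn the most similar genes were Sult5a1 (Pearson's r 0.41), Sparc (0.35) and Hnrnpc (0.34), and for Sparc they were Dcn (0.35), Sult5a1 (0.30) and Rbms3 (0.29). So Dcn and Sparc stood high on each other's lists, although Sparc was lower in both batches and the Dcn sums of the conditions overlapped. Bgn was most similar to Ubl7 (0.32), Wars (0.32) and Fads1 (0.26). Inhba was most similar to Ggct (0.36), Krt6a (0.35), a keratin of wounded epithelium, and Tnc (0.32). Between Inhba and Sparc r was -0.01, between Inhba and Bgn 0.04 and between Bgn and Sparc 0.05.

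Cells with reads of Bgn and of Inhba overlapped in part. In inflamed batch 2, 5 cells had both, 50% of the 10 Bgn cells and 15.2% of the 33 Inhba cells. In inflamed batch 3, 4 cells had both, 26.7% of the 15 Bgn cells and 20.0% of the 20 Inhba cells. Among all inflamed cells, Inhba was read in 41.2% and 26.3% and Bgn in 12.5% and 19.7%, so the overlap lay near these shares. Sparc reads were found in 23 of the 33 and 14 of the 20 inflamed Inhba cells (69.7% and 70%), against 63.8% and 68.4% of all inflamed cells. The genes with higher and lower levels in inflamed cells were thus read side by side in many of the same cells.

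Neighbouring genes and shared sequence were checked for the remaining members. At most 0.601% of the 50-base transcript windows of any member were shared with another gene, against 25.1% for Gapdh, which has many pseudogenes and stood at only 4.17 to 7.10 CPM in these tables. The nearest coding genes of Sparc, Fat2 and Atox1, had 21.2 to 51.4 CPM and 92.6 to 134.8 CPM in the 4 sums. Fat2 was 2.23-fold and 1.07-fold lower and Atox1 1.20-fold and 1.29-fold higher in inflamed cells, both with an unadjusted p above 0.05 by edgeR. Beside Bgn, Haus7 had 30.1 and 131.06 CPM (naive) and 33.7 and 10.2 CPM (inflamed), and Atp2b3 had 0 reads. Gli3, the nearest coding gene of Inhba at lower coordinates and 281824 bases away, went the other way, with 139.2 and 102.06 CPM (naive) and 32.3 and 17.4 CPM (inflamed) (edgeR p = 0.0137 unadjusted, lost without inflamed batch 3). Tns3, the nearest coding gene of Igfbp3 at higher coordinates and 1217728 bases away, was 7.004-fold and 2.50-fold lower in inflamed cells (edgeR p = 0.0446 unadjusted, lost with upper quartile scaling and without naive batch 2 or inflamed batch 2).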

How the data were processed

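Single cells were captured on a Fluidigm C1, amplified with SMARTer chemistry, prepared with Nextera and read as single-end 50-base reads, per the labels' protocols. The deposited files hold raw read counts, a table for each batch with genes in rows and cells in columns. TopHat2, HTSeq, R 3.4.1, Seurat 1.4 and GRCm38.p6 are named per the submitters' processing notes. The sources used here do not say how multiply mapped reads were handled. Symbols and coordinates came from GENCODE for GRCm38, promoters from RefSeq.

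Kept cells had at least 1000 detected genes and at least 50000 counts, and their counts were added up per condition and batch. Nothing says how many animals a batch holds, so p-values measure the spread between these sums, which may be technical. edgeR 4.0.16 (R 4.3.3; TMM, filterByExpr, batch and condition in the model, 1 residual degree of freedom) was the main test, with Benjamini-Hochberg adjustment over all 14713 genes, checked on simulated counts. DESeq2 1.42.0 was an alternative. The SE of a companion gene is its absolute log2 fold change divided by the square root of edgeR's F statistic. It thus restates that test. Floors are 3 counts per sum, within-batch log2 folds use a prior count of 2, shares have exact Clopper-Pearson 95% intervals, and FPKM divides CPM, on read totals without TMM factors, by the union of exons. Thinned shares leave out cells under 500000 counts. No doublet caller was run. The batch label was used to pair the sums. Across 14713 genes the naive and inflamed batch deviations had a correlation of -0.01, so the sums of a batch showed no shared deviation.

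The members and lists were chosen with earlier results of these data known. Companion genes were named by rule: per list, up to 3 with the largest fold in 1 direction in both batches among genes in at least 10% of cells, up to 3 with the highest level, any marker, neighbouring genes and the 3 genes most similar to each member. Genes named beside a count outside this rule (such as Ogn, Inhbb, Tgfb1, Igf1 and Igf2) were chosen after their values were seen.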

Additional observations from a re-analysis of the deposited data

Results flagged for a closer look

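The log2 fold change of Dcn, inflamed over naive, differed in sign between the batches, at -0.22 in batch 2 and 0.01 in batch 3. In batch 3 the ratio was 1.0065, which is hardly a change. With DESeq2 size factors, without top cells and with thinned cells, Dcn was lower in both batches. Each fold change rests on 1 sum per condition, and the difference between the batches was not tested.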

How the results depend on the processing

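Depth limits the members near 0: a sum with no read allows up to 3 counts, and 0 of 53 to 80 cells allows a share of up to 3.75% to 5.66% by the same floor (exact upper limits 4.51% to 6.72%). Sparc stayed lower in 16 of 16 alternatives (log2 fold change -3.13 to -2.20), Inhba higher in 16 of 16 (9.72 to 11.31) and Bgn higher in 15 of 15 (6.29 to 14.05). The alternatives reuse the same cells and the contrast the members were chosen on. Bgn and Inhba also passed the filter on low counts only through their inflamed sums. These counts therefore describe the processing and are no support for the differences. Dcn ranged from -0.34 to 0.10 and was positive in 2 of 16, without naive batch 3 and without inflamed batch 2. Igfbp3 did not pass the filter on low counts.

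Members higher in both batches numbered 3, 2 without the top cell of each gene and sum, and 3 to 4 without 1 of the sums, where only the other batch was left to compare. Members lower in both numbered 1, and 2 with DESeq2 size factors, without top cells and with cells thinned to equal counts, where Dcn joined Sparc, and 1 to 2 without 1 of the sums.

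With adjustment, edgeR called 0 genes in each of its 12 alternatives and DESeq2 called 1461. At an unadjusted p under 0.05, DESeq2 had 1743 genes higher and 1136 lower. Pairing by batch through the replicate block changed the counts of higher genes, with 1155 higher and 681 lower without it. Without 1 of the sums, and without the block, they ranged from 366 to 1428 higher and 297 to 823 lower. Of the list genes, DESeq2 had 25 higher and 25 lower at that threshold, and without 1 of the sums 8 to 22 were higher and 9 to 16 lower. The cause was not tested. Under other scalings the median of all genes was 0.05 to 0.14, and 7 list genes changed sign, each within 0.05 of 0.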

Other observations

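The 14 cells left out for few genes or counts, 7 naive and 7 inflamed, held the members too. Dcn had 222 reads in the naive and 374 reads in the inflamed cells among them, with a read in all 14. Sparc had 19 reads in 5 of the naive cells and 6 reads in 2 of the inflamed cells. Bgn had 0 reads in the naive cells and 12 reads in 2 of the inflamed cells, and Inhba 0 reads and 28 reads in 2 cells.

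Genes of other epithelial programmes differed beside the members. Of 13 luminal markers, 3 had higher and 7 lower levels in both batches, with 1 in each direction below an unadjusted p of 0.05 and a median log2 fold change of -0.80. Krt19, a keratin of luminal cells, had 30.3 and 100.65 CPM (naive) and 583 and 618 CPM (inflamed) (edgeR p = 0.00545 unadjusted, adjusted p = 0.568). Upk1b, a uroplakin, had 66.9 and 33.7 CPM (naive) and 355 and 428 CPM (inflamed) (edgeR p = 0.00510 unadjusted, adjusted p = 0.568). Col17a1, a collagen that spans the membrane at hemidesmosomes, had 121.25 and 111.7 CPM (naive) and 235 and 460.1 CPM (inflamed) (edgeR p = 0.0319 unadjusted, lost without naive batch 2, naive batch 3 or inflamed batch 3). Defb50, a defensin of the prostate, had 397 and 185.25 CPM (naive) and 77.4 and 56.2 CPM (inflamed).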
